A study of Mus musculus with 12 samples.

Results

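The transcription factors that define hepatocyte identity were represented by 9 genes, Hnf4a, Foxa1, Foxa2, Foxa3, Cebpa, Cebpb, Cebpd, Onecut1 and Prox1, out of 14188 protein-coding genes measured by RNA-seq in mouse liver. They were chosen by name for their known role in liver cells, at a time when earlier results of these data were known. The expression of a gene was taken as the sum of its listed protein-coding transcripts, of which the 9 genes had 15 among 29883. The livers came from 12 male mice with hepatic fibrosis induced by CCl4, a hepatotoxic solvent, and the strain is given as C57BL/8 in the sample labels and as C57BL/6J in the methods. From 6 weeks of age both groups received CCl4 in corn oil by intraperitoneal injection 2 times a week. The 6 mice of the PZH group were also given Pien Tze Huang (PZH), an herbal medicine of Chinese tradition, by gavage once a day at 0.25 mg/g, and the 6 mice of the control group were given double distilled water in its place. All livers were taken in week 8. No liver without CCl4 is among the samples, so each comparison is PZH plus CCl4 against CCl4 with water and says nothing of a normal level.

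These factors act as a network that keeps hepatocytes in their differentiated state. HNF4A is a nuclear receptor, the FOXA proteins open chromatin at liver enhancers, and C/EBP proteins are leucine zipper factors that bind a shared DNA motif as dimers. C/EBPA goes with quiescence and metabolic genes in hepatocytes, while C/EBPB and C/EBPD are induced by cytokines and drive acute-phase genes, and many of the 9 factors bind and regulate the genes of the others.

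The values were FPKM, sequenced fragments scaled to the length of the transcript and to the mapped total of the library, tested by limma on log2(FPKM + 1) with Benjamini-Hochberg adjustment over all genes, and a gene was called at an adjusted p under 0.05. The limma p-values weigh the difference between the groups against the spread between mice within the groups. Of all genes 44.8% were called, 12.7% as higher and 32.1% as lower with PZH, and 28.3% of the calls were thus higher. When the FPKM of every mouse were divided by its median-ratio scale factor (0.892 to 1.004 for PZH mice, 1.05 to 1.12 for control mice), 50.3% of the calls were higher, and the median log2 fold change over genes moved from -0.11 to -0.0024. That scaling raised the log2 fold change of a gene by 0.15 at the median, so changes of this size depend on the scale. Albumin, the main hepatocyte secretory protein, was at 38437 ± 5471 FPKM (SD, n = 6) in PZH mice and 24059 ± 4039 in control mice.

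Of the 9 genes, 5 were called, beside 44.8% of all genes. Cebpa was higher in PZH mice, and Hnf4a, Foxa3, Cebpb and Cebpd were lower. Foxa3 and Cebpb also passed the criteria of a 2-fold change with an unadjusted p under 0.05, which 4.02% of all genes passed. For 4 of the 9 genes (Hnf4a, Foxa3, Cebpa and Cebpb) the 6 PZH mice did not overlap the 6 control mice, as was the case for 24.3% of all genes. After median-ratio scaling 6 of the 9 were called, beside 39.1% of all genes. Cebpa, Foxa1 and Prox1 were then higher, Foxa3, Cebpb and Cebpd were lower, and Hnf4a was no longer called. In bulk liver RNA, fewer cells of a type and less RNA per cell cannot be told apart.

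**Figure D1:**
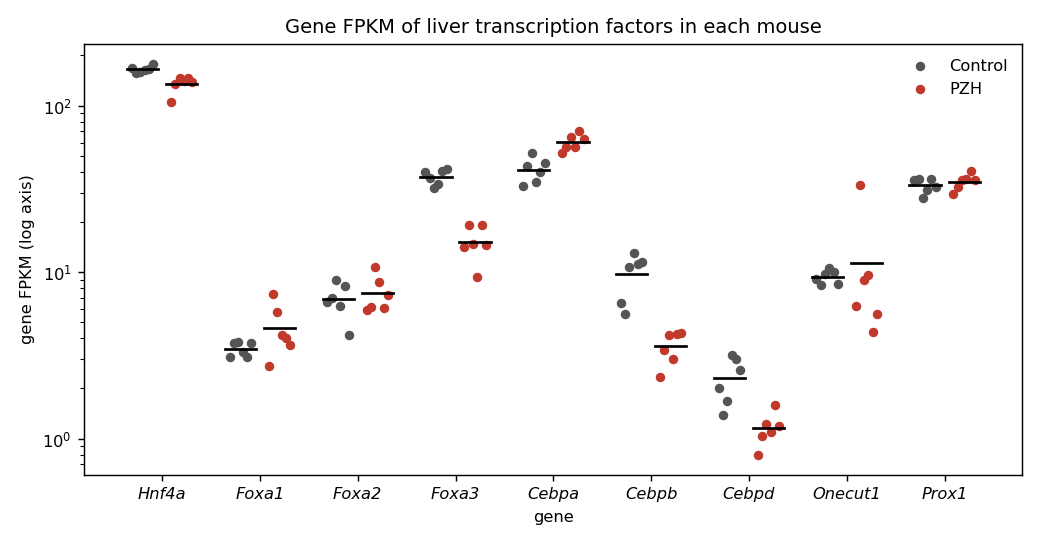
Gene FPKM (log axis) of the 9 genes in each of the 6 PZH and 6 control mice, 1 point per mouse and a line at each group mean. The points of the groups do not overlap for Hnf4a, Foxa3, Cebpa and Cebpb, and 1 PZH mouse stands apart for Onecut1 at 33.2 FPKM.

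Hnf4a encodes a nuclear receptor that directs lipid transport, coagulation and urea cycle genes in hepatocytes, and it had the highest level of the 9 genes. Gene FPKM had a lowest value of 105, a median of 139 and a highest value of 146 in PZH mice, and 156, 164 and 179 in the control group. All 6 PZH mice were below all 6 control mice, and PZH mouse 1 (105 FPKM) lay furthest down. The mean was 135 ± 15.2 FPKM (SD, n = 6) against 166 ± 7.94, and the log2 fold change was -0.30 (SE 0.08, limma adjusted p = 0.00937). Without PZH mouse 1 it was -0.23 (limma adjusted p = 0.00411). After median-ratio scaling the log2 fold change was -0.11 (limma adjusted p = 0.240), so the call for Hnf4a depends on how the mice are scaled.

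The 3 Foxa genes encode forkhead pioneer factors, of which Foxa1 and Foxa2 act early in liver development and Foxa3 is prominent in adult liver. Foxa3 had a lowest value of 9.39, a median of 14.7 and a highest value of 19.3 FPKM in PZH mice, and 31.9, 38.4 and 41.7 FPKM in the control group. The groups did not overlap, and the gap between them was wider than the range within either. Foxa3 fell with PZH, with means of 15.2 ± 3.67 FPKM (SD, n = 6) against 37.4 ± 4.04, a 2.47-fold lower mean. The log2 fold change came to -1.27 (SE 0.14, limma adjusted p = 3.87e-05). The exact permutation test gave p = 0.0022 (two-sided, n = 6 and 6), the smallest that relabelling 12 mice can give.

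Foxa1 ranged from 2.74 to 7.41 FPKM (median 4.12) in the PZH group and from 3.08 to 3.80 (median 3.52) in the control group. Of the PZH mice, 4 were above all control mice and 1 was below all of them, so the PZH group was the more spread out. Its log2 fold change was 0.29 (95% interval -0.06 to 0.63, limma adjusted p = 0.160), and it was called after median-ratio scaling (0.44, limma adjusted p = 0.0308) and without PZH mouse 1 (0.40, limma adjusted p = 0.0359). Foxa2 ranged from 5.95 to 10.8 FPKM (median 6.71) in the PZH group and from 4.201 to 8.98 (median 6.77) in the control group. The ranges overlap widely, and the log2 fold change was 0.11 (95% interval -0.25 to 0.47, limma adjusted p = 0.623).

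The balance within the family does not depend on the scaling between mice. Foxa3 made up 42.1 to 65.5% of the summed FPKM of the 3 Foxa genes in PZH mice and 71.4 to 84.0% in control mice, with no overlap. The mean share was 55.4 ± 8.95% (SD, n = 6) against 78.2 ± 4.16%. The sum itself was 27.3 ± 4.41 FPKM in PZH mice and 47.8 ± 3.34 in control mice. Foxa1 took 16.7 ± 4.001% of the sum against 7.28 ± 1.01% without overlap, and Foxa2 took 28.0 ± 7.80% against 14.5 ± 3.78%, where 5 of the 6 PZH mice were above all control mice.

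Cebpa encodes C/EBPA, which holds hepatocytes out of the cell cycle and drives genes of glucose and nitrogen metabolism. It had a lowest value of 52.0, a median of 59.7 and a highest value of 70.0 FPKM in PZH mice, and 32.98, 41.6 and 51.6 FPKM in the control group. The groups did not overlap, but only just, since the lowest PZH mouse and the highest control mouse were less than 1 FPKM apart. Cebpa rose with PZH, with means of 60.5 ± 6.61 FPKM (SD, n = 6) against 41.3 ± 6.86, and changed by 0.55 on the log2 scale (SE 0.11, limma adjusted p = 0.00141).

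Cebpb encodes C/EBPB, an inducible factor of the acute-phase response and of liver regeneration. It had a lowest value of 2.33, a median of 3.80 and a highest value of 4.32 FPKM in PZH mice, and 5.62, 10.96 and 13.1 FPKM in the control group. Every PZH mouse was below every control mouse, and control mice 1 and 2 (6.56 and 5.62 FPKM) were the lowest of their group. Cebpb fell from 9.78 ± 2.98 FPKM (SD, n = 6) to 3.58 ± 0.809, a 2.73-fold lower mean, and the log2 change of -1.20 had an SE of 0.19 (limma adjusted p = 0.000311).

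Cebpd encodes C/EBPD, which is likewise induced by interleukin-6 family cytokines. It was the lowest of the 9 genes, at 0.794 to 1.59 FPKM (median 1.14) in PZH mice and 1.39 to 3.19 (median 2.29) in control mice. Of the 6 PZH mice, 5 were below all control mice, and PZH mouse 5 overlapped control mouse 2. The mean was 1.16 ± 0.262 FPKM (SD, n = 6) against 2.31 ± 0.727, and Cebpd fell by 0.60 on the log2(FPKM + 1) scale (SE 0.14, limma adjusted p = 0.00389), where the added 1 makes the change of a low gene look smaller than the 1.996-fold ratio of the means. The exact permutation test gave p = 0.0043 (two-sided).

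A ratio within a mouse does not depend on the scaling either, and the ratios are given as values without a test. The ratio of Cebpa to Cebpb FPKM was 14.5 to 22.3 in PZH mice and 2.67 to 7.71 in control mice, with means of 17.4 ± 2.81 (SD, n = 6) and 4.61 ± 1.74. The log2 ratio of Cebpa to Cebpd was 5.73 ± 0.18 against 4.21 ± 0.62, also without overlap. Cebpa accounted for 92.8 ± 0.872% of the summed FPKM of the 3 C/EBP genes in PZH mice and 77.4 ± 6.13% in control mice. The sum of the 3 genes overlapped between the groups, at 65.2 ± 7.60 FPKM against 53.4 ± 7.74. The ratio of Cebpb to Cebpd overlapped as well, at 3.11 ± 0.392 against 4.33 ± 1.11.

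**Figure D2:**
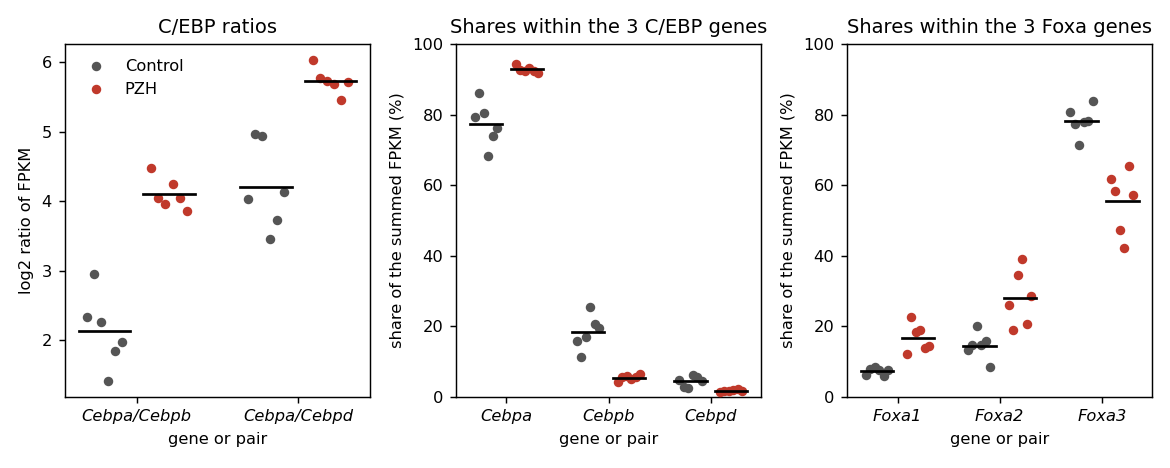
Ratios and shares within the C/EBP and Foxa families, 1 point per mouse: log2 ratio of FPKM (left), share of the summed FPKM of the 3 C/EBP genes in percent (middle) and of the 3 Foxa genes in percent (right). The groups do not overlap for Cebpa to Cebpb, Cebpa to Cebpd, the 3 C/EBP shares, and the Foxa1 and Foxa3 shares, and they do for the Foxa2 share.

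Onecut1 encodes HNF6, a cut homeodomain factor of hepatocytes and bile ducts. Its FPKM was 4.34 to 33.2 (median 7.60) in PZH mice and 8.41 to 10.5 (median 9.44) in control mice. PZH mouse 2 held the value of 33.2, the next highest PZH mouse was at 9.66, and 3 PZH mice were below all control mice. The mean of 11.3 ± 10.9 FPKM (SD, n = 6) thus rested on 1 mouse, beside 9.37 ± 0.863 in the control group. The log2 fold change was -0.07 (95% interval -0.82 to 0.68, limma adjusted p = 0.893), it was 0.10 after median-ratio scaling, and without PZH mouse 2 it was -0.43 (limma adjusted p = 0.0479). PZH mouse 2 also had the highest Foxa1 value of all mice (7.41 FPKM).

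Prox1 encodes a homeodomain factor of hepatocytes and lymphatic endothelium that restrains bile acid synthesis genes. It was 29.4 to 40.3 FPKM (median 35.6) in PZH mice and 27.9 to 36.3 (median 34.1) in control mice, and the ranges overlap, with 2 PZH mice above all control mice. The means were 34.9 ± 3.71 (SD, n = 6) and 33.3 ± 3.38, with a log2 fold change of 0.07 (95% interval -0.12 to 0.26, limma adjusted p = 0.569). After median-ratio scaling it was 0.25 (limma adjusted p = 0.0351).

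**Figure D3:**
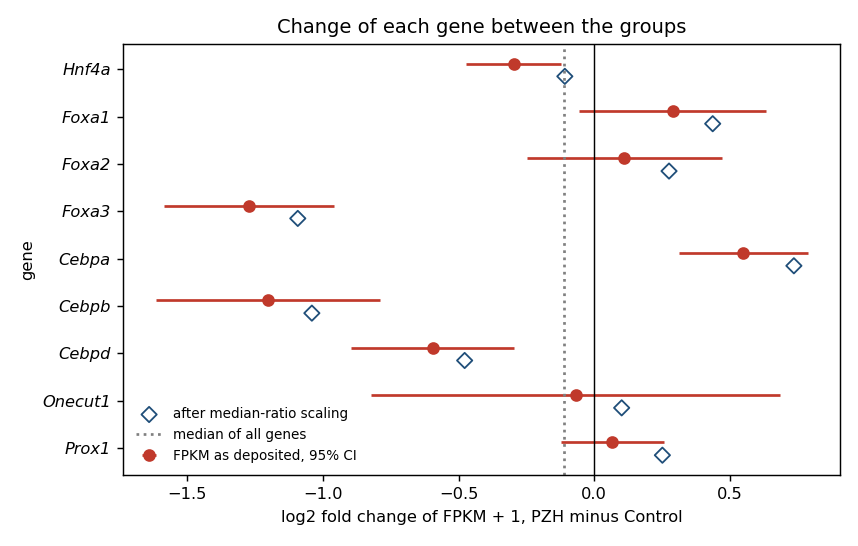
Log2 fold change of FPKM + 1, PZH minus Control, for the 9 genes with 95% intervals, and a dotted line at the median of all genes (-0.11). Foxa3 (-1.27) and Cebpb (-1.20) lie furthest to the left and Cebpa (0.55) to the right. After median-ratio scaling Hnf4a is no longer called, Foxa1 and Prox1 are, and Onecut1 changes sign.

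On GRCm38 the called genes lie on 3 chromosomes. Hnf4a (plus strand, 163506808 to 163572910) and Cebpb (plus strand, 167688915 to 167690418, with 1 exon) are on chromosome 2, Foxa3 (minus strand, 19013284 to 19023538) and Cebpa (plus strand, 35119293 to 35121928, whose listed transcript also has 1 exon) are on chromosome 7, and Cebpd (plus strand, 15887286 to 15891031) is on chromosome 16, where exons of Spidr on the other strand share 562 bases with it.

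FPKM is per length, so levels can be ordered across genes. In the control group the order of means was Hnf4a, Cebpa, Foxa3, Prox1, Cebpb, Onecut1, Foxa2, Foxa1 and Cebpd. In the PZH group it was Hnf4a, Cebpa, Prox1, Foxa3, Onecut1, Foxa2, Foxa1, Cebpb and Cebpd. Cebpb thus stood at place 5 in control mice and at place 8 in PZH mice, and Foxa3 passed from above Prox1 in 6 of 6 control mice to below it in 6 of 6 PZH mice. Hnf4a was above Cebpa in every mouse of both groups, whereas Cebpa and Foxa3 overlapped in the control group, where 4 of 6 mice kept their order. Cebpb and Onecut1 overlapped there as well, with 4 of 6 mice keeping their order, so place 5 for Cebpb is not firm. The ranges of Foxa3 and Prox1, Onecut1 and Foxa2, and Foxa1 and Cebpd also overlapped in the control group, with the order kept in 6 of 6 mice. In the PZH group the neighbours Foxa3 and Onecut1, Onecut1 and Foxa2, Foxa2 and Foxa1, and Foxa1 and Cebpb overlapped.

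Hnf4a, Foxa2 and Prox1 have several listed transcripts. Hnf4a is transcribed from an upstream (P2) and a downstream (P1) promoter, and the only listed transcript with the upstream start, ENSMUST00000143911 (3 exons, start at 163506808 on chromosome 2 of GRCm38, 40380 bases before the downstream start), was a minor one. It was 0.101 to 1.49 FPKM in PZH mice and 1.04 to 3.31 in control mice, with means of 0.721 ± 0.494 (SD, n = 6) and 1.96 ± 0.895. It was lower in the PZH group (log2 fold change -0.78, SE 0.23, limma adjusted p = 0.0296, where 19.7% of all transcripts were called), a call that was lost in 5 of the 12 fits that left out 1 mouse and after median-ratio scaling (limma adjusted p = 0.0614). Its share of Hnf4a was 0.517 ± 0.349% against 1.18 ± 0.522% (exact permutation p = 0.0238, two-sided). Adjusted over the shares of all transcripts of genes with several, this exact permutation p was 0.342. The unadjusted p stayed under 0.05 in 10 of the 12 runs that left out 1 mouse. The downstream transcript ENSMUST00000018094 held 98.8 ± 0.316% of the PZH and 96.2 ± 4.64% of the control Hnf4a FPKM. Its level was 134 ± 14.8 FPKM against 159 ± 4.19 (log2 fold change -0.26, limma adjusted p = 0.0372), a call that was lost in 9 of the 12 fits that left out 1 mouse and after median-ratio scaling (-0.07, limma adjusted p = 0.567). ENSMUST00000109411 differs from it only by 6 terminal bases and was 19.8 FPKM in control mouse 6 and at most 0.613 in the others, so the division between the pair is uncertain and they are best read together.

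Foxa2 was divided between a transcript with the distal start, ENSMUST00000047315 (start at 148046969 on chromosome 2), and one with a proximal start, ENSMUST00000109964 (148045948). The distal one held 69.9 to 87.7% of Foxa2 in PZH mice and 36.9 to 86.0% in control mice, and control mouse 1 was the only control mouse in the range of the PZH group. The mean share was 79.5 ± 7.47% (SD, n = 6) against 56.6 ± 17.3% (exact permutation p = 0.0238, two-sided). In levels the proximal transcript was 1.47 ± 0.417 FPKM against 2.97 ± 1.43 (log2 fold change -0.61, limma adjusted p = 0.0956) and the distal one 6.02 ± 1.88 against 3.90 ± 1.57 (0.54, limma adjusted p = 0.123), and neither was called. Over the shares of all 22918 transcripts of genes with several, 11.3% had an unadjusted p under 0.05 and 0 an adjusted one. The exact permutation p of the Foxa2 share, adjusted over them, was 0.342.

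Prox1 had 3 transcripts, of which ENSMUST00000175916 held 68.5 ± 2.39% in the PZH and 69.3 ± 3.94% in the control group. ENSMUST00000010319 was 5.55 ± 0.958 FPKM against 4.07 ± 0.510 (SD, n = 6) and was called higher in the PZH group (log2 fold change 0.36, limma adjusted p = 0.0281), a call lost in 6 of the 12 fits that left out 1 mouse. Its share was 15.9 ± 2.46% against 12.2 ± 1.27% (exact permutation p = 0.00866, adjusted 0.239).

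**Figure D4:**
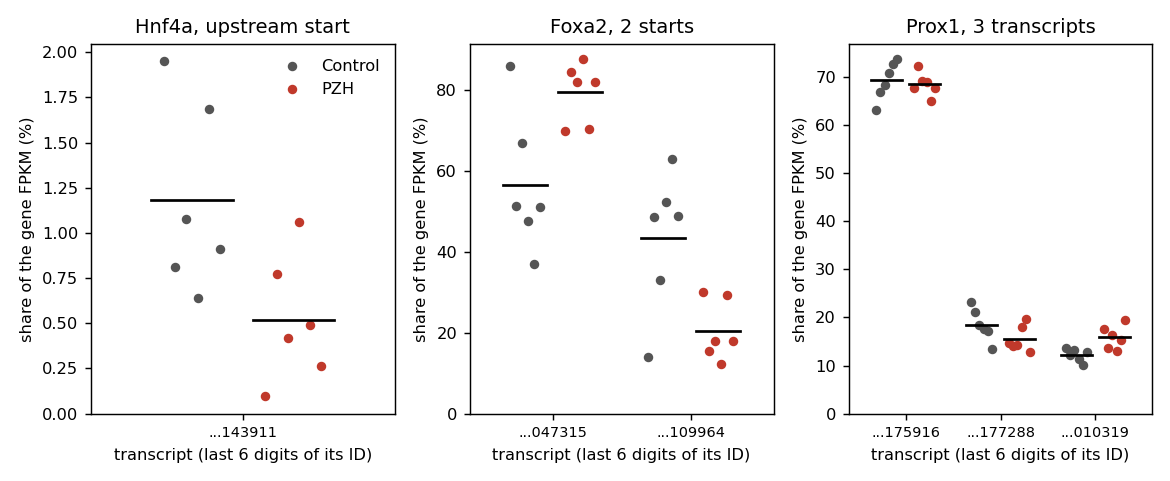
Share of the gene FPKM in percent held by the upstream Hnf4a transcript ENSMUST00000143911 and by each listed transcript of Foxa2 and Prox1. The end of the transcript ID is on the axis, with 1 point per mouse and group means. The other listed Hnf4a transcripts, which hold most of its FPKM, are not drawn. The distal Foxa2 transcript averages 79.5% in PZH mice and 56.6% in control mice, and the upstream Hnf4a transcript averages 0.517% and 1.18%.

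The sequences before these starts and before those of Foxa3 and Cebpb, the 2 genes that fell most, are given here 5′ to 3′ on the strand of the gene, from RefSeq on GRCm38.p6. Each is the 250 bases before the RefSeq start, and capitals mark a motif match. RefSeq places the downstream Hnf4a start at 163547155, slightly before that of the listed transcript. It places the upstream Hnf4a start at 163506857, after the 163506808 of the listed transcript. The last bases of that stretch thus lie after the listed start. RefSeq gave 12 windows for 8 of the 9 genes, with none for Cebpd.

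Hnf4a upstream start, chr2:163506607-163506856, plus strand: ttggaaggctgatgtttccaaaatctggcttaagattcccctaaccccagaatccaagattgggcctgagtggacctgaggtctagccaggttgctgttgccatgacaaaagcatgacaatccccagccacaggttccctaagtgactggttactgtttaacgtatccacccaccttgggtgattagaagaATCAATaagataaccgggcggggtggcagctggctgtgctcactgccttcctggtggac

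Hnf4a downstream start, chr2:163546905-163547154, plus strand: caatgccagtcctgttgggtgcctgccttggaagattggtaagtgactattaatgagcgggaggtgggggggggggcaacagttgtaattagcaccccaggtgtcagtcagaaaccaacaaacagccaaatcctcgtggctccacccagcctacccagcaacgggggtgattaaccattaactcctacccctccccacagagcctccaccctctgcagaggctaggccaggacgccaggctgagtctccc

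Foxa2 distal start, chr2:148046970-148047219, minus strand: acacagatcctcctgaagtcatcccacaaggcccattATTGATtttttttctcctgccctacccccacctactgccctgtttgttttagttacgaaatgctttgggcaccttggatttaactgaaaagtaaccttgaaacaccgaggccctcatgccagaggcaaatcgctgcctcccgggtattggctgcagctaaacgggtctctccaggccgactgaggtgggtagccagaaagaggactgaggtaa

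Foxa2 proximal start, chr2:148045949-148046198, minus strand: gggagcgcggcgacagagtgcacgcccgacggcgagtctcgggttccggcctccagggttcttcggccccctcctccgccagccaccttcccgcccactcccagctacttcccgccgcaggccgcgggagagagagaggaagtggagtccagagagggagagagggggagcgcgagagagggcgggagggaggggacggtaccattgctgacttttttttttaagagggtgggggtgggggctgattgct

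Foxa3, chr7:19023540-19023789, minus strand: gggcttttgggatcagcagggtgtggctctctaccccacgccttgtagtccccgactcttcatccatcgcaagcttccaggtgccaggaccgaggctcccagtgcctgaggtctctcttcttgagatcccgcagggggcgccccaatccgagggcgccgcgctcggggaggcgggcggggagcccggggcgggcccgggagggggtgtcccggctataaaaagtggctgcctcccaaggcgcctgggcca

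Cebpb, chr2:167688665-167688914, plus strand: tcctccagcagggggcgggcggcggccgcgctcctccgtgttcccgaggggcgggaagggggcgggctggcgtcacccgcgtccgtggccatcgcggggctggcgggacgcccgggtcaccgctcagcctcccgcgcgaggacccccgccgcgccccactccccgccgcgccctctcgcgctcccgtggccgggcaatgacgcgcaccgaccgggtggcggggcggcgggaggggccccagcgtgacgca

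Both strands of the whole windows (250 bases before and 50 after the start) were searched for TTGCNNAA (C/EBP), TGTTTAC and TATTTAC (FOXA), CAAAGTCCA (HNF4), ATCGAT and ATTGAT (HNF6), TTCNNNGAA (STAT), TGACGTCA (CRE) and CACGTG (E-box). ATTGAT was found 59 bases before the RefSeq upstream Hnf4a start, as ATCAAT on the strand shown, and 213 bases before the distal Foxa2 start. Of all 32851 windows 7.54% hold it. Neither the downstream Hnf4a window nor the proximal Foxa2, Foxa3 or Cebpb windows held a match. The Foxa1 window held TGTTTAC, as do 3.65% of all windows, and that of Onecut1 held CACGTG, as do 7.15%. No window of the 8 genes held TTGCNNAA, which 10.8% of all windows hold. A match is a run of letters and not a bound site.

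LncRNA transcripts within 20 kb of the 9 genes and protein-coding transcripts that overlap them were examined as well, a choice made after the values were seen. The lncRNA Gm20649 lies on the strand of Onecut1 and shares 2171 exonic bases with it (79.2% of its length). It was 17.2 FPKM in PZH mouse 3, 0.295 in PZH mouse 6 and listed at 0 in the other 10 mice, but how the reads of the shared exons were divided between the pair was not tested. The sum of both was 26.1 FPKM in PZH mouse 3, and the log2 difference of the summed values between the groups was 0.18 (exact permutation p = 0.66, two-sided). Gm35665, an lncRNA 13118 bases from Cebpa, was 0.302 ± 0.145 FPKM (SD, n = 6) against 0.0462 ± 0.0247 without overlap (limma adjusted p = 0.00601, where 20.6% of lncRNA transcripts were called), both below 1 FPKM.

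The list of other C/EBP genes held Cebpg, Cebpe and Ddit3, whose products dimerise with those of the members, and Cebpz, which shares the name. It had 1 called higher and 3 called lower of 4, where 12.7% and 32.1% of all genes were. The median log2 fold change was -0.72 beside -0.11 for all genes. Ddit3, which encodes the stress-induced dominant-negative partner CHOP, fell from 32.0 ± 7.34 FPKM (SD, n = 6) to 7.33 ± 1.83 (log2 fold change -1.98, limma adjusted p = 1.3e-05). Cebpg fell from 22.8 ± 2.46 to 11.9 ± 1.59 FPKM (-0.89, limma adjusted p = 3.1e-05). Cebpz also fell (-0.55), and Cebpe, known as a granulocyte factor, rose (0.43, limma adjusted p = 0.00986).

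Of 30 other hepatocyte transcription factors 12 were called higher and 3 lower (12.7% and 32.1% of all genes), with a median of 0.22. Dbp, an output gene of the circadian clock, rose by 2.73 on the log2 scale and Tef, its relative, by 1.49. Srebf1, which drives lipogenesis, rose by 1.07, and Nfil3, which opposes Dbp at shared sites, changed by -1.09. Onecut2, the nearest relative of Onecut1, was not called (log2 fold change 0.39, limma adjusted p = 0.243). Of 16 coregulators 2 were higher and 5 lower (12.5% and 31.25%), close to the shares of all genes. Trib1, which promotes the degradation of C/EBPA, fell by 0.67. After median-ratio scaling 4 coregulators were higher and 2 lower.

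Genes of hepatocytes that HNF4A, FOXA and C/EBPA are known to regulate moved mostly upward. Of 40, 27 were called higher and 1 lower (12.7% and 32.1% of all genes), with a median of 0.63. Cyp7a1, the rate-limiting enzyme of bile acid synthesis, rose by 4.54 on the log2 scale, Serpina6, which binds corticosteroids in serum, by 2.51 and Cyp2e1, the enzyme that activates CCl4, by 2.24. The exception was Igfbp1, which binds insulin-like growth factors and fell by 2.56. Acute-phase genes of C/EBPB and C/EBPD moved the other way, with 20 of 25 called lower and none higher (1 higher and 16 lower after median-ratio scaling, and 21 lower and none higher at an unadjusted p under 0.05 without it). Lcn2, an iron-binding acute-phase protein, fell by 2.06, Il1rn by 1.95, Orm2 by 1.81 and Lbp, which binds lipopolysaccharide, by 1.31. Upstream signals of Cebpb and Cebpd had 12 of 17 called lower and 1 higher (median -0.75). Il1b fell by 1.55, the oncostatin M receptor Osmr by 1.33, the shared receptor subunit Il6st by 1.002 and Stat3 by 0.99. Il6 and Osm themselves are not listed in the files used here. Some of these lists were written with earlier results known, Cyp7a1 among them, so their counts describe the data only.

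**Figure D5:**
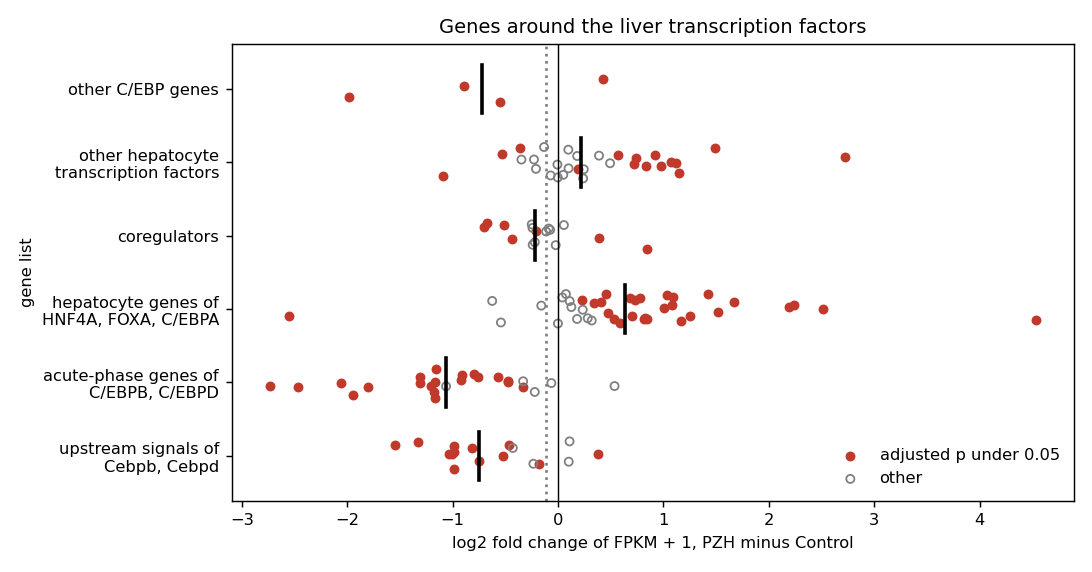
Log2 fold change of FPKM + 1, PZH minus Control, for each gene of 6 lists around the liver transcription factors, with a dotted line at the median of all genes (-0.11). The hepatocyte genes lie mostly right of it (27 of 40 called higher) and the acute-phase genes left of it (20 of 25 called lower).

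Cell types other than hepatocytes also express Cebpb and Cebpd, and their marker lists were read beside these results. Of all genes 12.7% were called higher and 32.1% lower. The share called lower was 33.3% for the Kupffer cell and macrophage list and 20% for the neutrophil list. Of 12 Kupffer cell and macrophage markers 3 were called higher and 4 lower (4 and 2 after median-ratio scaling). Cd14 fell by 2.73 and Marco by 2.21 on the log2 scale, while Clec4f rose by 0.60 and Vsig4 by 0.57, and Adgre1 was at 20.2 ± 3.601 FPKM (SD, n = 6) against 17.3 ± 2.35. Summed, the list was 325 to 495 FPKM in PZH mice and 367 to 476 in control mice. Lyz2 was the largest part of this sum, with means of 235 and 190 FPKM, and was not called. Of 10 neutrophil markers none was higher and 2 were lower, with sums of 14.2 to 168 FPKM and 19.9 to 65.7 FPKM. At an unadjusted p under 0.05, 1 was higher and 2 were lower. The higher one was Ngp, at 3.68 ± 6.94 FPKM (SD, n = 6) against 0.162 ± 0.0478 without overlap (limma adjusted p = 0.0962). S100a8 was not called (log2 fold change -0.31, limma adjusted p = 0.698), nor was S100a9 (-0.26, limma adjusted p = 0.758). Their means were higher in PZH mice, at 17.8 against 13.6 FPKM and 9.02 against 6.35. Their medians were lower, at 7.04 against 12.5 FPKM and 2.96 against 4.95, and the highest PZH values were 76.0 and 40.6 FPKM. No T, B and NK cell marker of 10 was called by limma (0 at an unadjusted p under 0.05, and 2 higher after median-ratio scaling), and their sums were 5.79 to 9.21 FPKM against 5.30 to 8.72. No measured marker of any list was at 0 in all mice. The part of these cells in the values of Cebpb and Cebpd was not tested.

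Prox1 is expressed in lymphatic endothelium and Onecut1 in cholangiocytes. The share called lower was 25% for the endothelial and for the cholangiocyte list and 41.7% for the stellate list, beside 32.1% of all genes. For called higher the share of all genes was 12.7%. Of 12 endothelial markers 3 were lower and none was higher, but 1 was lower and 1 higher after median-ratio scaling. Summed, they were 95.3 to 125 FPKM in PZH mice and 113 to 129 in control mice. Lyve1 fell by 0.62, Pdpn by 0.53 and Pecam1 by 0.29, and Pdpn and Pecam1 were no longer called after median-ratio scaling. Kdr (0.18) and Stab1 (-0.08) were not called, and Kdr was the 1 called higher after that scaling. Of 8 cholangiocyte markers measured 2 were lower, of which Sox9 fell by 1.64 and Cldn4 fell by 0.87, while Krt19 was at 2.88 ± 0.850 FPKM (SD, n = 6) against 3.07 ± 1.17 and Krt7 at 0.197 ± 0.0864 against 0.230 ± 0.101. Of 12 stellate cell and myofibroblast markers 2 were higher and 5 lower (4 and 5 after median-ratio scaling), while Col1a1 was not called (0.18). The 2 called higher were Reln, which rose by 0.98 on the log2 scale, and Col3a1, by 0.62. Of the 5 called lower 3 are named here. Timp1 fell by 2.13, Tagln fell by 1.38 and Acta2 fell by 0.92 on the log2 scale. The summed FPKM of the 12 stellate cell and myofibroblast markers was 312 to 401 in the PZH and 255.3 to 387 in the control group. Dcn was the largest part of this sum, with means of 184 and 170 FPKM, and was not called. Of 8 hepatocyte markers 4 were higher and 1 (Hnf4a itself) was lower, and Alb rose by 0.68 and Cps1, of the urea cycle, by 0.85. After median-ratio scaling 7 were higher and 0 lower. The part of these cells in the values of the 9 genes was not tested.

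The genes whose pattern over the 12 mice lay nearest to each called member, by the root mean square difference of centred log2(FPKM + 1) among 10947 genes, were Atg2b and Sgta for Hnf4a (0.0556 and 0.0605) and Entpd7 and Ppan for Foxa3 (0.163 and 0.169). For Cebpa they were Pgpep1 and Ddo (0.0536 and 0.0843), for Cebpb Tmem119 and Jund (0.155 and 0.195) and for Cebpd Spsb1 and Tbc1d24 (0.108 and 0.114). The measure favours genes with a change of the same size, as with Entpd7, which had a log2 fold change of -1.21, and Jund at -1.10.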

How the data were processed

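RNA-seq was performed on liver from 12 mice, 6 PZH and 6 control. Per the labels and methods, strand-specific libraries from ribosomal RNA-depleted RNA were trimmed with Trimmomatic, mapped to GRCm38 with HISAT2 and assembled with StringTie, and the authors deposited FPKM for 29883 protein-coding and 1432 lncRNA transcripts. FPKM hold no counts. Low values gave whole fragments (within 0.01) for only 7.11 to 14.4% of them, so counts were not recovered. The best-matching depth was 26.9 to 42.9 M fragments in a search from 25 to 50 M, a range set after a wider search from 15 to 60 M had given 4 mice far lower values (15.2 to 21.4 M), so the depth of those mice is not settled.

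Transcript FPKM were summed per gene. limma 3.58.1 in R 4.3.3 was fitted to log2(FPKM + 1) of all 14188 genes, and of all transcripts and lncRNA apart, with p-values adjusted over each table. Exact permutation tests used all labellings of the mice in Python 3.11.15. As alternatives, 0.1 was added in place of 1, genes under a mean FPKM of 1 were left out, and the other fits used median-ratio or equal-sum scaling, a variance trend, a replicate block, the most abundant transcript and leaving out each mouse. On simulated data with 200 of 14188 genes changed, at a median log2 fold change of 1.50, 96.5% were recovered with 13 false calls. With 200 of 29883 transcripts changed, at a median of 1.52, 80.5% were recovered with 13 false calls. The called members changed by less than this, Hnf4a, Cebpa and Cebpd by much less. The simulation therefore does not show how well changes of their size are recovered. The members and gene lists were chosen with earlier results of these data known. The genes named were all members with their transcripts, at most 4 genes per list with the largest called change and no overlap between the groups, the first 2 of each marker list, the 2 genes nearest each called member, and relatives of members (Onecut2, Cebpg and Ddit3). Some genes that this rule names are not reported here. Cebpz was also named by that rule, and Cebpe, Reln and Col3a1 after their values were seen. Neighbouring transcripts, some ratios (C/EBP shares), the adjustment of shares and the windows printed were chosen after values had been seen. Protein sequences were not used here.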

Additional observations from a re-analysis of the deposited data

Results flagged for a closer look

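Each of 36 groups of 6 values, from the 9 genes and the transcripts of those with several, was tested for a lowest or highest mouse far from the others by Dixon's 95% critical value for the gap over the range. It was exceeded in 6 groups, and chance exceeds it in about 1 in 20. PZH mouse 1 was far below the others for Hnf4a (105 FPKM) and for its main transcript ENSMUST00000018094 (105 FPKM), which are nearly the same measurement. PZH mouse 2 was far above the others for Onecut1 (33.2 FPKM). The Hnf4a transcript ENSMUST00000109411 was far above the others in PZH mouse 3 (0.613 FPKM) and in control mouse 6 (19.8 FPKM). In control mouse 6 the Hnf4a transcript ENSMUST00000137449 was also highest, at 2.19 FPKM. The cause was not tested for any of them.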

How the results depend on the processing

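Foxa3, Cebpa, Cebpb and Cebpd kept their direction and their call in all 19 alternatives, with log2 fold changes of -1.35 to -1.09, 0.49 to 0.74, -1.39 to -1.04 and -0.91 to -0.48. After median-ratio scaling Hnf4a was not called (-0.11), Foxa1 (0.44) and Prox1 (0.25) were, and Onecut1 was reversed (0.10, as gene and as its only transcript), as was the Prox1 transcript ENSMUST00000177288 (0.014). The cause was not tested. Leaving out 1 mouse at a time gave a Foxa1 change of 0.16 to 0.40 (log2), a Foxa2 change of -0.0033 to 0.18 and a Onecut1 change of -0.43 to 0.11, the lowest without PZH mouse 2. In the same fits the Prox1 transcript ENSMUST00000175916 ranged from -0.00035 to 0.10 and its share from -2.03 to 0.0722 percentage points, and the Hnf4a transcript ENSMUST00000109411 from -0.86 to 0.012, with a share of -2.19 to 0.0194, while the share of ENSMUST00000137449 ranged from -0.142 to 0.0218. Genes called numbered 5554 to 6437 over the alternatives and transcripts called 4442 to 6018, beside 6358 and 5898.

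The correlations of same-numbered deviations were -0.0784 to 0.0929, and 0 of 6 PZH mice correlated best with the control mouse of the same number. Mouse numbers thus gave no sign of pairing here, but low correlations over all genes cannot exclude a shared block. The SE with the number as a replicate block was lower than in the main fit for Foxa1, Foxa2, Foxa3, Cebpa, Cebpb, Cebpd and Onecut1. It was higher for Hnf4a and Prox1, and for Cebpb it went from 0.19 to 0.14. With the number as a replicate block 5982 genes and 4442 transcripts were called, and the 5 gene calls were unchanged, Hnf4a at an adjusted p of 0.0267 by limma, but the calls of the Hnf4a transcripts ENSMUST00000143911 and ENSMUST00000018094 and of the Prox1 transcript ENSMUST00000010319 were lost. Sequencing depth could not be settled from FPKM, so no counting error is given for genes near 1 FPKM such as Cebpd.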
